A study of Homo sapiens with 16 samples.

Results

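Vimentin (VIM), the surface glycoprotein THY1 and 5 transcription factors that drive the epithelial-mesenchymal transition (ZEB1, ZEB2, SNAI1, SNAI2 and TWIST1) were followed in 16 RNA libraries of 2 human lung cell lines. The 7 genes were picked by name from the 23709 genes listed for each library, with earlier results of these data known. H1299 is a non-small cell lung carcinoma line, and HBE is a human bronchial epithelial line. H1299 cells had been transfected with a plasmid for Flag-tagged FLII (FLII overexpression) or with the empty plasmid (vector). HBE cells stably held a short hairpin RNA aimed at FLII, delivered by lentivirus (FLII knockdown), or were labelled NC, with no further description. FLII, flightless I, is an actin-binding protein of the gelsolin family. Each of these 4 arms gave 1 library of mRNA, 1 of cytosolic RNA, 1 of nuclear RNA and 1 of RNC RNA, which is pelleted with the ribosome-nascent chain complex from cells treated with cycloheximide. No group had a replicate, so no test between conditions was possible and every interval covers counting error only.

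In the epithelial-mesenchymal transition, epithelial cells lose junctions and polarity and gain a motile, mesenchymal form. ZEB1 and ZEB2 are zinc finger and homeodomain repressors, SNAI1 and SNAI2 are zinc finger repressors, and all of them bind E-box motifs in promoters of epithelial genes such as CDH1. TWIST1 is a basic helix-loop-helix factor that acts as a dimer. VIM is the main intermediate filament protein of mesenchymal cells, and THY1 (CD90) is a membrane-anchored glycoprotein used as a marker of fibroblasts. The microRNAs of the miR-200 family and miR-205 are known to repress ZEB1 and ZEB2, and ZEB1 in turn represses the genes of the miR-200 family.

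The microRNA sequences are shown because ZEB1 and ZEB2 were among the genes that separated the lines, and because these short RNAs were not measured by the libraries. They come from RefSeq on GRCh38.p14, and the capitals mark the seed, bases 2 to 8. A first group shares one seed.
hsa-miR-200b-3p: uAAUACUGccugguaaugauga
hsa-miR-200c-3p: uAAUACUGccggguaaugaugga
hsa-miR-429: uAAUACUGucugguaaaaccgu
A second group of the same family differs from it within the seed.
hsa-miR-200a-3p: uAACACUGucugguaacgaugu
hsa-miR-141-3p: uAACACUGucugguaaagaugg
miR-205 has a seed of its own.
hsa-miR-205-5p: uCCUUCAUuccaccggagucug

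These lie on the plus strand, miR-200b at chr1:1167160-1167181, miR-200a at chr1:1167916-1167937, miR-429 at chr1:1169055-1169076, miR-200c at chr12:6963742-6963764, miR-141 at chr12:6964155-6964176 and miR-205 at chr1:209432166-209432187. The DNA letters that pair with the first seed, CAGTATT, occurred 6 times in the ZEB1 3′ untranslated region of 2549 bases (GENCODE v29 transcript ENST00000361642.9). They occurred 5 times in that of ZEB2, 5370 bases long (ENST00000627532.2). Of 19111 such regions, 1 per gene, 16% held the letters at least once. Among 2557 regions close to ZEB1's in length, its own included, 26.7% held them. The share that held as many as ZEB1 was 0.0391%, which is ZEB1 alone. For ZEB2 the shares of 1173 regions, its own included, were 46.7% and 0.171%. The letters for the second seed, CAGTGTT, occurred 3 times in ZEB1 and 4 times in ZEB2. Of the regions of like length, 29.8% and 52.2% held them at least once, and 0.626% and 1.28% held as many. Those for miR-205, ATGAAGG, occurred 1 time in ZEB1, where 19.3% of regions of like length held them, and 0 times in ZEB2. Outside these genes, SNAI2 had 1 match to CAGTATT, where 11.4% of regions of like length held it. VIM, SNAI1, TWIST1 and THY1 had 0 matches to any of the 3 words. The first 3 matches in each gene are given 5′ to 3′ with the match in capitals, at positions 369, 463 and 892 of the ZEB1 region and 392, 455 and 813 of the ZEB2 region. A match is a description of letters and not evidence of binding here.
ZEB1, match 1: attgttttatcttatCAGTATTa
ZEB1, match 2: atgctaaatccgcttCAGTATTt
ZEB1, match 3: gtaagtgccatttctCAGTATTt
ZEB2, match 1: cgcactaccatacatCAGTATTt
ZEB2, match 2: cgcactacaatgcatCAGTATTa
ZEB2, match 3: ttgaagcacccatgtCAGTATTa

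Depth set what could be seen. Reads assigned to genes numbered 5914489 to 9259569 in the 12 mRNA, cytosol and nuclear libraries and 26711771 to 38514467 in the 4 RNC libraries. The line labels held outside RNC: 10 basal epithelial markers such as KRT5 and TP63 summed to 6440 to 12200 CPM, the counts scaled to library size, in HBE and to 102 to 253 CPM in H1299. FLII followed its labels in the 6 pairs outside RNC, with log2 folds of 2.14, 1.66 and 1.86 after overexpression and −2.58, −2.94 and −2.98 after knockdown. It did not in RNC, where the folds were −4.21 and 0.07. The RNC library labelled H1299 FLII overexpression held genes typical of HBE at a median of 91.4% of their HBE NC cytosol level and genes typical of H1299 at 0.934% of their H1299 vector cytosol level. The RNC library labelled HBE FLII knockdown held genes typical of H1299 at 46.9% and of HBE at 1.73%. For this reason the RNC libraries are named below by their labels only, directions from them are directions between labels, and results are given without them first.

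VIM was the most abundant of the 7 genes per length in H1299 and was nearly absent from HBE. In mRNA it took 37438 reads in H1299 vector and 48135 in H1299 FLII overexpression, against 49 in HBE NC and 23 in HBE FLII knockdown. In cytosolic RNA the same order of libraries gave 16372, 8888, 18 and 41 reads, and in nuclear RNA 19256, 20915, 15 and 12. The 6 H1299 libraries thus lay far above the 6 HBE libraries, at 666 to 2950 RPKM, the reads per kilobase of transcript scaled to library size, against 0.685 to 2.91. By RPKM, VIM ranked 11 among all genes in H1299 vector mRNA and 9580 in HBE NC mRNA. In bulk RNA, fewer cells that carry a transcript and less of it per cell cannot be told apart.

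**Figure D1:**
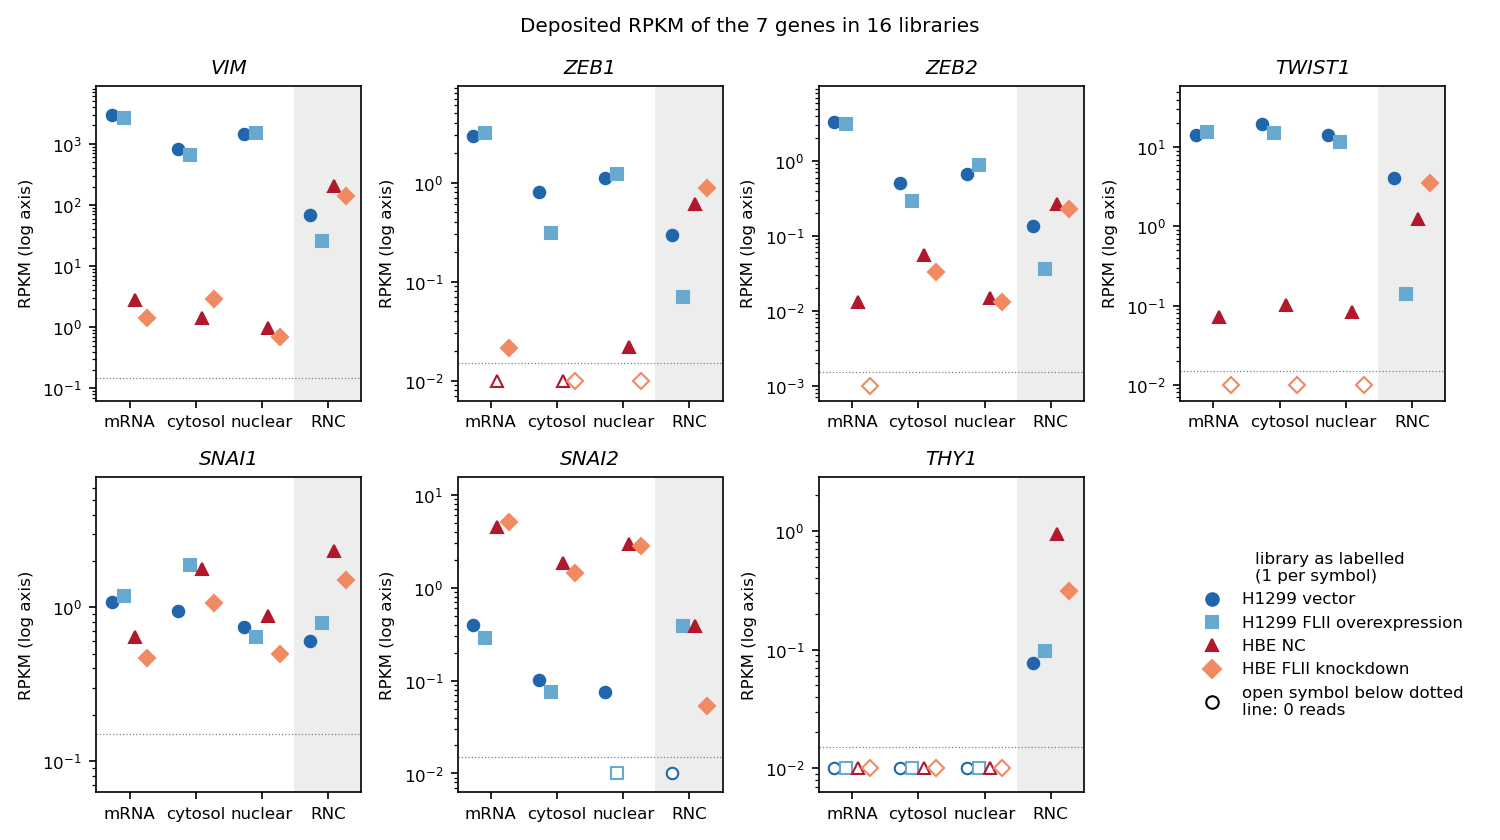
RPKM on a log axis (vertical) of each of the 7 genes in mRNA, cytosol, nuclear and RNC libraries (horizontal), with 1 symbol per library and open symbols below the dotted line for 0 reads. Outside the shaded RNC column, VIM, ZEB1, ZEB2 and TWIST1 are higher in all 6 H1299 libraries than in any of the 6 HBE libraries, SNAI2 is lower, SNAI1 overlaps and THY1 has 0 reads.

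The ZEB genes showed the same order at a much lower level. ZEB1 had 110 and 164 reads in mRNA of H1299 vector and FLII overexpression, 47 and 12 in cytosol and 44 and 49 in nuclear RNA. Across the 6 HBE libraries it had 2 reads in all, 0 in 4 of them, and 0 reads in HBE NC mRNA allows up to 0.0578 RPKM by a limit of 3 counts. ZEB2 had 183 and 240 reads in H1299 mRNA, 43 and 17 in cytosol and 39 and 53 in nuclear RNA, against 0 to 3 in each HBE library. Per length, both lay in the range of 0.295 to 3.33 RPKM in H1299. In H1299 vector mRNA they ranked 9679 and 9380 by RPKM among all genes, where VIM ranked 11. The counting is not stated to use strand, so reads of ZEB1 and of the overlapping antisense gene ZEB1-AS1 cannot be told apart where they overlap. ZEB1-AS1, unlike ZEB1, had reads in all 6 HBE libraries, 2 to 13.

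TWIST1 was the highest of the 5 transcription factors in H1299. It had 140 and 218 reads in H1299 mRNA, 305 and 156 in cytosol and 148 and 123 in nuclear RNA, or 11.5 to 19.8 RPKM. HBE NC gave 1 read in each of these kinds of RNA and HBE FLII knockdown gave 0. The lines did not overlap for this gene.

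SNAI2, which encodes SLUG, ran the other way. In HBE it had 79 and 81 reads in mRNA of NC and FLII knockdown, 23 and 20 in cytosol and 46 and 49 in nuclear RNA, or 1.44 to 5.11 RPKM. In H1299 it had 0 to 5 reads in each library, at most 0.399 RPKM. SNAI1 did not separate the lines: it had 7 to 20 reads in each H1299 library and 6 to 18 in each HBE library, with medians of 1.02 and 0.758 RPKM. THY1 had 0 reads in all 12 libraries outside RNC, which allows up to 0.135 to 0.212 RPKM depending on the library. In H1299 vector mRNA the order per length was therefore VIM, TWIST1, ZEB2, ZEB1, SNAI1, SNAI2 and THY1, and in HBE NC mRNA SNAI2, VIM, SNAI1, TWIST1 and ZEB2, with ZEB1 and THY1 at 0. ZEB2 and ZEB1 in H1299 vector mRNA, at 3.33 and 2.95 RPKM, came from 183 and 110 reads, so this step of the order is small beside counting error.

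The folds between the lines followed from these levels. In mRNA of the control arms, 5 of 6 genes with at least 20 summed reads were called, meaning a difference of at least 2-fold with a 95% interval that excluded no change, and 43.6% of all genes tested were. VIM was higher in H1299 by a log2 fold of 9.77 (9.39 to 10.22), ZEB2 by 7.11 (5.23 to 13.04) and TWIST1 by 6.72 (4.84 to 12.65). The wide intervals of ZEB2 and TWIST1 stem from single reads in HBE. ZEB1 was at least 42.5-fold higher against a limit of 3 counts, and SNAI2 was lower by a log2 fold of −3.65 (−5.43 to −2.49). SNAI1 was not called, at 0.48 (−0.91 to 1.95).

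The other kinds of RNA repeated these directions. In cytosol 6 of 6 tested genes were called (background 48.9%) and in nuclear RNA 5 of 5 (background 45.3%). VIM stood at a log2 fold of 8.69 and 10.26, TWIST1 at 6.72 and 6.61, and SNAI2 at −4.21 and −4.97. SNAI1 was called in cytosol alone, lower in H1299 at −1.34 (−2.47 to −0.31) from 15 and 18 reads, and with total counts in place of trimmed mean of M-values (TMM) scaling it was −0.88 and not called. Between the FLII-altered arms the calls were 5 of 6 in mRNA (background 42.1%), 3 of 4 in cytosol (45.0%) and 5 of 5 in nuclear RNA (46.0%). VIM was there 10.75, 7.49 and 10.81 higher in H1299 on the log2 scale. Over the 6 comparisons 29 of 32 gene values were called. As a share of genes, 5 of the 7 did not overlap between the 6 H1299 and 6 HBE libraries, where 25.4% of genes with at least 20 reads in all did not, 15.0% with H1299 higher and 10.4% with HBE higher. The 6 libraries of a line differ in treatment and kind of RNA and are not replicates.

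**Figure D2:**
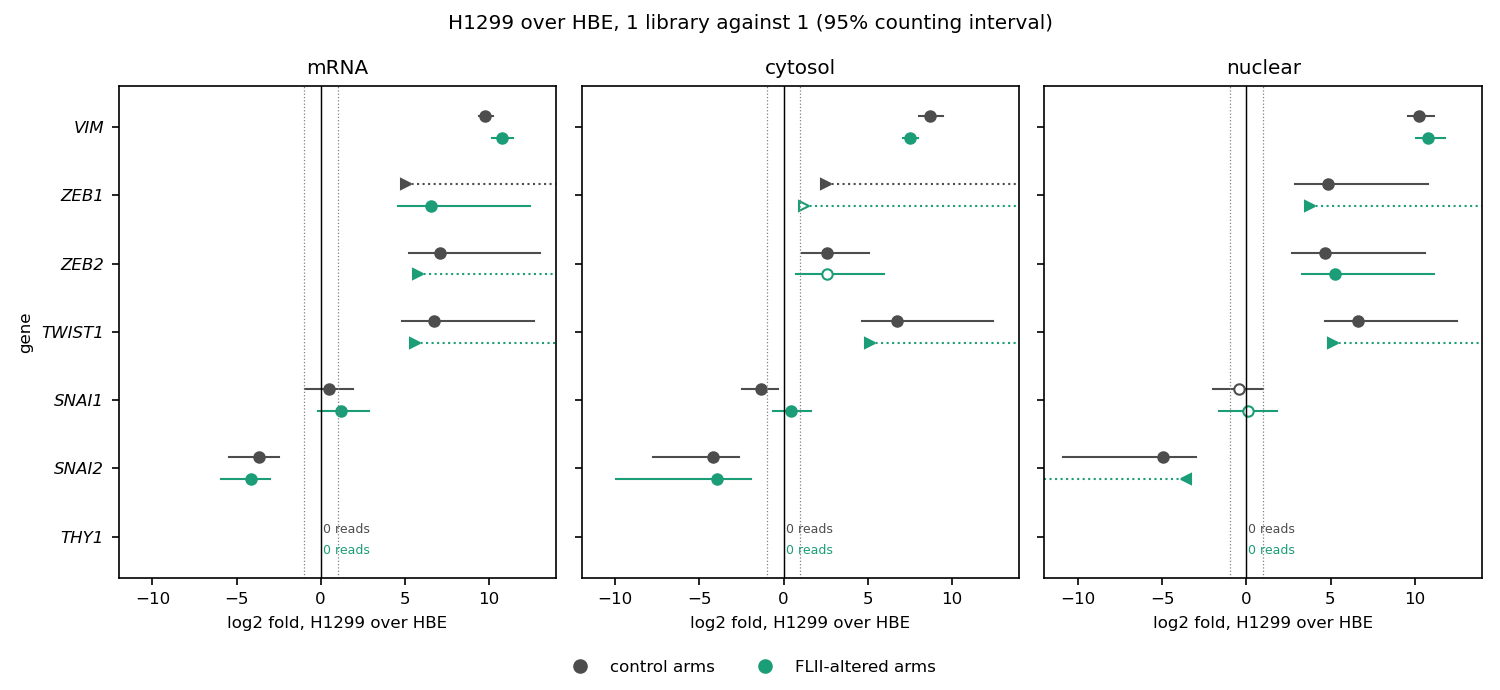
Log2 fold of H1299 over HBE (horizontal) for each gene (vertical) in mRNA, cytosol and nuclear RNA, with lines for the 95% counting interval, triangles and dotted lines where 1 library had 0 reads, open symbols under 20 summed reads and dotted verticals at a 2-fold difference. VIM lies between 7.49 and 10.81 in all 6 comparisons, and SNAI2 is the 1 gene below 0 in all of them.

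The epithelial genes that SNAI and ZEB proteins are known to repress differed between the lines in the opposite direction to VIM. Of a list of 20, 17 were lower in H1299 vector than in HBE NC mRNA and 1 was higher, against 22.4% and 21.2% of all genes tested. Their median log2 fold was −6.28, or −5.71 with the 2 genes at 0 reads in one line set at their bound, beside −0.01 over all genes. CDH1, which encodes E-cadherin, had 9 reads in H1299 vector and 1991 in HBE NC. The tight junction gene CLDN7 had 12 and 3420 reads, the adhesion gene EPCAM 10 and 1618, and the small GTPase gene RAB25 1 and 635. Across all 12 libraries outside RNC, 16 of the 20 were higher in every HBE library, 1 was higher in every H1299 library (CLDN3) and 3 overlapped.

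Promoter sequence was available on GRCh38.p14 from RefSeq for 9 of the 20 epithelial genes, as 12 windows of 250 bases before a transcription start. The E-box CAGGTG or its complement CACCTG, the word bound by ZEB and SNAI proteins, was found on either strand in 7 of the 12 windows, from 6 genes, and in 17.5% of all 35116 windows. Of the 12 windows, 8 overlap exons of the same gene in GENCODE v29, so they are not all sequence ahead of transcription. Those of CRB3, a polarity gene with 5 motifs, and CLDN7, with 4 in 1 window, are among these 8. Of the 4 windows free of exons, 2 held the motif, those of RAB25 and TJP3. The RAB25 window at chr1:156060910-156061159, plus strand, is shown because it is free of exons and RAB25 had 1 read in H1299 vector mRNA. Its capitals mark the single motif, which begins 41 bases before the start.
RAB25 promoter: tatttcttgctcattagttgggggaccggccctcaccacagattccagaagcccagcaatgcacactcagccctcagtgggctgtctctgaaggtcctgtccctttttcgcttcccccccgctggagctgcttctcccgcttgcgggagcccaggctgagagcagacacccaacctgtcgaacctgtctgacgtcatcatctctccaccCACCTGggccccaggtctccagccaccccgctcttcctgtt
No binding was measured in these samples.

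The host transcript of miR-205, MIR205HG, was also split by line, though it was chosen for this account after its values were seen. It had 1 read in each H1299 mRNA library, 828 in HBE NC mRNA and 656 in HBE FLII knockdown mRNA. Over the 12 libraries it ranged from 0 to 1.08 RPKM in H1299 and from 98.1 to 152 RPKM in HBE. The libraries list the hairpins of miR-200a, miR-200b, miR-200c, miR-141 and miR-429 at 0 reads in all 16 libraries, and that of miR-205 at 15 reads in total. Libraries made from mRNA do not measure mature microRNAs, so no level of these is given.

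Other genes of the programme were mixed. Of 20 mesenchymal effector genes, 15 were tested in mRNA of the control arms. Of these, 6 were higher in H1299 vector and 5 lower than in HBE NC, with a median log2 fold of 0.52. Among all genes tested in this pair, 43.6% were called in either direction. The gene of the receptor kinase AXL was higher at 2.59 and the matrix protease MMP2 at 5.14, while COL1A1 at −4.23 and the matrix gene TNC at −4.95 were lower. Over the 12 libraries 3 of the 20 were above in H1299, 2 were above in HBE and 15 overlapped, where 25.4% of all genes did not overlap. Of 14 further transcription factors of the transition, 5 were higher and 3 lower among 10 tested in mRNA. HMGA2 stood at 7.58 (158 and 0.671 RPKM) and ETS1 at 3.27, and PRRX1 had 53 and 0 reads. FOXQ1 (−7.17) and SNAI3 (−3.71) were lower in H1299, like SNAI2.

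Among the dimer partners of TWIST1 and their inhibitors, 2 of 6 tested were higher and 2 lower in H1299 vector mRNA. The background in this pair was 43.6% called in either direction. The E protein gene TCF4 was higher at a log2 fold of 2.29, and the inhibitor genes ID1 and ID3 were lower at −2.42 and −1.47, while ID2 was higher at 4.28. Of 15 other intermediate filament and linker genes, 5 were higher and 2 lower among 10 tested. The neuronal filament genes INA and NEFH had 646 and 212 reads in H1299 vector and 0 in HBE NC, and SYNM, whose product joins VIM filaments, had 146 and 3. Keratin 8 (KRT8), an epithelial filament gene, was lower at −1.24. VIM was thus not the only filament gene with this order: INA, NEFH, NEFM and SYNM were higher in all 6 H1299 libraries than in all 6 HBE libraries.

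In mRNA of the control arms, where 43.6% of all genes tested were called in either direction, THY1 itself gave no fold between the lines. Of 8 genes for its binding partners, 3 were higher and 1 lower among 7 tested in mRNA: the integrin genes ITGB3 (4.40) and ITGAM (3.77) and the receptor gene CD97 (1.62) were higher in H1299, and ITGB2 (−5.58) was lower. Of 10 fibroblast and stromal surface markers 6 were tested, and NT5E, ENG and MCAM were higher while CSPG4 and FAP were lower. Of 8 defining fibroblast markers, FAP and COL1A1 were higher in every HBE library than in any H1299 library outside RNC. Over the 6 libraries of each line FAP had 2 reads in H1299 and 592 in HBE, and COL1A1 had 64 and 959. The other 6 overlapped between the lines, with 1 to 14 reads each over the 6 libraries of a line. The 8 summed to 1.08 to 3.53 CPM in the H1299 libraries outside RNC and to 10.3 to 77.6 CPM in the HBE ones. LUM was at 0 in 10 of these 12 libraries and DCN, another matrix gene of fibroblasts, in 8. Of 10 endothelial and leukocyte markers 5 were tested in mRNA, and 0 were higher and 4 lower in H1299 vector.

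With 1 library per arm, an effect of FLII on the 7 genes was not tested. Of 21 gene values with at least 20 summed reads in the 6 FLII pairs outside RNC, 3 were called. Among all genes tested, 0.599% to 4.95% were called, depending on the pair. In each of the 3 neither library had more than 49 reads of the gene. Most of the 21 values were from H1299, since ZEB1, ZEB2, TWIST1 and THY1 had too few reads in HBE. VIM in H1299 changed by log2 folds of −0.11 (−0.13 to −0.09) in mRNA, −0.24 (−0.28 to −0.20) in cytosol and 0.05 (0.02 to 0.08) in nuclear RNA. These intervals are narrow because of the many reads, and they do not hold the spread between cultures, which was not measured. ZEB1, ZEB2 and TWIST1 in H1299 mRNA stood at 0.10, −0.08 and 0.17, with intervals that reached no further than 0.48 from 0. The calls in H1299 mRNA were 0 of 5 (background 0.798%), and in nuclear RNA 0 of 4 (background 0.599%).

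In H1299 cytosol 2 of 5 were called (background 2.68%). ZEB1 was lower after FLII overexpression at −1.30 (−2.38 to −0.39), from 12 and 47 reads, and SNAI1 was higher at 1.03 (0.02 to 2.13), from 20 and 15 reads. The antisense gene ZEB1-AS1 had 3 and 14 reads in these libraries. The SNAI1 value ended on the other side of 2-fold with total counts (0.96), with 5 reads added (0.82) and with RPKM (0.56). Neither gene was called in mRNA or nuclear RNA. In the same pair the basal epithelial markers moved: 5 of 7 tested were higher after FLII overexpression and 0 lower, with KRT17 at 448 and 43 reads, KRT5 at 145 and 10 and TRIM29 at 36 and 1. In H1299 mRNA 0 of 5 tested were higher and 2 lower (background 0.798% in either direction). Their summed level was 253 CPM against 102 CPM in vector, and 12000 CPM in HBE NC cytosol. Of 13 tested epithelial genes repressed by SNAI or ZEB, 4 were higher there too (CLDN4, CLDN7, DSP and ST14) and 0 lower. The part of these transcripts in the ZEB1 and SNAI1 values was not tested.

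In HBE the VIM fold of knockdown over NC differed in sign among the kinds of RNA, at a level close to the limit of counting. This difference was not tested. In mRNA VIM was lower at −1.07 (−1.86 to −0.34), from 23 and 49 reads, which was 1 call of 2 genes tested (background 4.95%). The call was lost with total counts (−0.94), with 5 reads added (−0.94) and with RPKM (−0.63). In cytosol VIM was at 1.00 (0.19 to 1.90), from 41 and 18 reads, just under the 2-fold limit before rounding, and 0 of 3 genes were called (background 1.25%). In nuclear RNA it was at −0.50 (−1.74 to 0.68), from 12 and 15 reads, with 0 of 2 called (background 0.873%). SNAI2, per length the highest of the 5 transcription factors in HBE outside RNC, stood at 0.05 in mRNA, −0.36 in cytosol and −0.10 in nuclear RNA. Its widest interval ran from −1.31 to 0.56. ZEB1, ZEB2 and TWIST1 had too few reads in HBE for a fold.

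Some mesenchymal genes other than VIM had larger folds in HBE mRNA. After knockdown, 4 of 14 tested effector genes were higher and 3 lower, where 4.95% of all genes tested were called in either direction. Fibronectin (FN1) had 6050 and 263 reads (log2 fold 4.53, 4.36 to 4.72), the contractile gene TAGLN 98 and 10 (3.24), and the cadherin genes CDH11 and CDH2 78 and 13 (2.55) and 306 and 59 (2.37). LOX (−3.40), ITGA5 (−1.67) and ACTA2 (−1.20) were lower, as VIM was. Of these 7 genes, FN1 alone was also called in another kind of RNA, at 1.04 in nuclear RNA from 521 and 222 reads. It stood at −0.44 in cytosol from 9 and 11 reads. CDH2 was at 0.28 in nuclear RNA, and TAGLN at −0.61 in cytosol and −0.40 in nuclear RNA. In H1299 mRNA 0 of 15 tested effector genes were called after FLII overexpression (background 0.798%).

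**Figure D3:**
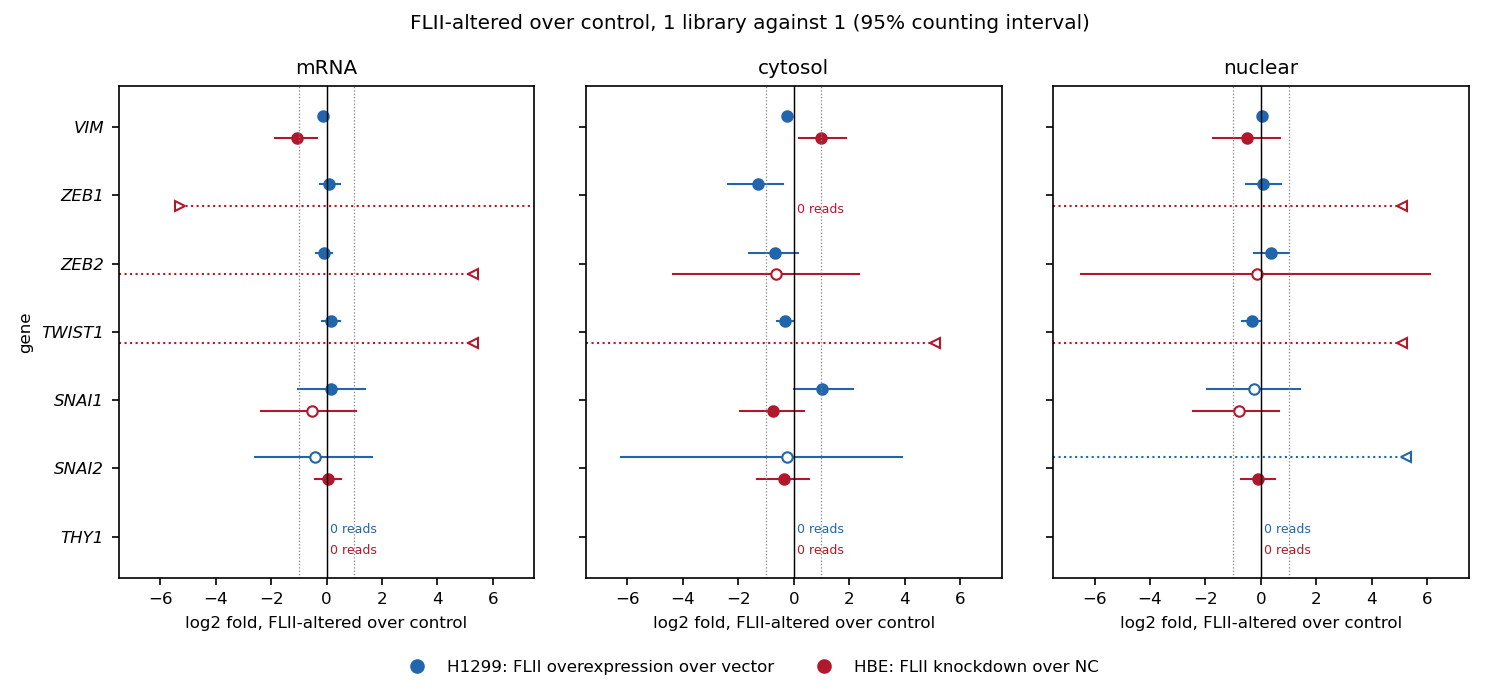
Log2 fold of the FLII-altered library over its control (horizontal) for each gene (vertical) in mRNA, cytosol and nuclear RNA of H1299 and HBE, with lines for the 95% counting interval, triangles and dotted lines where 1 library had 0 reads, open symbols under 20 summed reads and dotted verticals at a 2-fold difference. The H1299 values of VIM, ZEB1, ZEB2 and TWIST1 in mRNA lie close to 0, and the called values are ZEB1 and SNAI1 in H1299 cytosol and VIM in HBE mRNA.

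The balance between nucleus and cytosol differed among the genes in H1299. VIM was slightly higher in nuclear RNA, at 0.46 (0.43 to 0.49) in vector and 0.65 (0.61 to 0.68) in FLII overexpression, while TWIST1 was lower at −0.81 (−1.11 to −0.53) and −0.93 (−1.28 to −0.58). ZEB1 and ZEB2 stood at 0.13 and 0.09 in vector and at 1.41 (0.51 to 2.49) and 1.04 (0.24 to 1.94) in FLII overexpression. SNAI1 stood at −0.65 in vector and −2.01 in FLII overexpression. The ZEB2 call was lost with DESeq2 size factors (0.99), and those of ZEB1 (0.76) and SNAI1 (−0.81) with RPKM plus 1, while VIM was called in FLII overexpression with total counts (1.19). The calls were 0 of 5 in vector (background 27.5%) and 3 of 5 in FLII overexpression (36.2%). Whether the arms differ was not tested, and the cytosol library of the second arm is the one with the raised epithelial markers. In HBE NC, VIM (−1.08, 15 and 18 reads) and SNAI1 (−1.5, 11 and 18 reads) were lower in nuclear RNA, 2 of 3 tested (39.8%), and in FLII knockdown VIM was at −2.58 from 12 and 41 reads, 1 of 2 (41.5%). With total counts the HBE NC values were −0.56 for VIM and −0.99 for SNAI1, neither called. SNAI2 was not called in either arm, at 0.15 and 0.41.

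Transcript length moved with these values across genes with at least 100 summed reads in a pair, the set behind the medians given here. In H1299 vector, genes with transcripts of up to 1862 bases had a median nuclear over cytosol log2 fold of −0.42 and those of over 4534 bases one of 0.30. TWIST1 is listed at 1666 bases, and ZEB1 and ZEB2 at 6268 and 9243. In this pair ZEB1 (44 and 47 reads) and ZEB2 (39 and 43 reads) were themselves below the minimum of 100. The trend was larger against the mRNA libraries, a comparison added after the values were seen. In H1299 vector, cytosol over mRNA had a median of 1.19 for genes of up to 1932 bases and −1.0 for those of over 4660, and TWIST1 stood at 1.20, ZEB1 at −1.14 and ZEB2 at −2.0. There 4 of 5 members tested were called (background 48.7%). VIM, at 2136 bases, stood at −1.12, where genes of 1932 to 3044 bases had a median of 0.29. The part of length in the members' values was not tested.

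In RNC libraries VIM, ZEB1 and ZEB2 did not follow the labels of the lines. TWIST1 and SNAI2 followed them between the libraries labelled H1299 vector and HBE NC. Between those labelled H1299 FLII overexpression and HBE FLII knockdown, TWIST1 and SNAI2 did not. VIM had 5544 reads in the RNC library labelled H1299 vector, 2128 in that labelled H1299 FLII overexpression, 14888 in that labelled HBE NC and 8137 in that labelled HBE FLII knockdown. ZEB1 had 70, 17, 129 and 146 reads in the same order, ZEB2 47, 13, 85 and 57, and TWIST1 253, 9, 71 and 159. SNAI1 had 39, 52, 136 and 69, SNAI2 0, 31, 28 and 3, and THY1 7, 9, 77 and 20. VIM, ZEB2, SNAI1 and THY1 were thus highest in CPM in the library labelled HBE NC, ZEB1 in that labelled HBE FLII knockdown and TWIST1 in that labelled H1299 vector. THY1 had reads in the RNC libraries alone, which are deeper. In those labelled H1299 vector and H1299 FLII overexpression it stood at 0.0776 and 0.0975 RPKM. These levels are below the 0.135 to 0.212 RPKM that 0 reads allow outside RNC, so there depth and a difference in level cannot be told apart. MIR205HG had 0 and 5 reads in the RNC libraries labelled H1299 vector and HBE FLII knockdown, and 2607 and 1679 in those labelled H1299 FLII overexpression and HBE NC.

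Between labels, the FLII overexpression over vector fold in RNC was called for 5 of 6 genes (background 49.0%): VIM at −1.63, ZEB1 at −2.26, ZEB2 at −2.06 and TWIST1 at −4.98, with SNAI2 at least 8.69-fold higher. The FLII knockdown over NC fold was called for 3 of 7 (background 30.6%): TWIST1 at 1.86, SNAI2 at −2.37 and THY1 at −1.22. For the line labels, H1299 vector over HBE NC gave 3 of 7 calls (background 58.4%), with VIM at −0.58 and TWIST1 at 2.67. With total counts VIM (−1.56), ZEB1 (−1.01) and SNAI1 (−1.92) were called there too, which makes 6 of 7. H1299 FLII overexpression over HBE FLII knockdown gave 5 of 7 (background 52.4%), with VIM at −1.87 and SNAI2 at 3.23. RNC over mRNA was called for 4 of 5, 6 of 6, 7 of 7 and 7 of 7 genes in H1299 vector, H1299 FLII overexpression, HBE NC and HBE FLII knockdown, where 64.3%, 69.8%, 41.8% and 59.6% of all genes were. VIM there stood at −3.22, −4.88, 7.12 and 8.0. SNAI1, at 1.32 and 1.21 in the H1299 arms, reversed to −0.82 and −0.58 with total counts and to −0.37 and −0.29 with RPKM, so its direction in these comparisons rests on the scaling. TWIST1 in H1299 vector, not called at 0.38, was called at −1.8 with total counts and at −1.59 with RPKM, so its direction rests on the scaling too. SNAI2 in H1299 FLII overexpression, called at 2.15, was 0.41 and not called with total counts. The SNAI1 call in HBE FLII knockdown (2.99) was lost with RPKM (0.78).

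For the RNC library labelled HBE NC, the level of VIM was set beside genes typical of H1299. These were 267 genes with a mean of at least 5 CPM in the 6 H1299 libraries outside RNC. Their mean was at least 50 times the HBE mean with 0.05 CPM added, and each had at least 5 CPM in H1299 vector cytosol. VIM, ZEB1 and TWIST1 are among them, and ZEB2, at 4.64 CPM in that cytosol library, is not. VIM reached 24.6% (24 to 25.1) of its CPM in H1299 vector cytosol, and 33.5% with TMM scaling, while the median of the typical genes was 4.02% with quartiles of 0.534% and 13.9%. Of the 267, 84.6% were below VIM in this measure and 94.8% were below ZEB1, which stood at 74.2% from 129 and 47 reads. VIM held a similar place in the RNC library whose label reads FLII overexpression in H1299, at 3.12% and above 80.9% of the 267. In the RNC library labelled H1299 vector, by contrast, VIM at 8.34% was above 3.37% of them. In the one labelled HBE FLII knockdown it was at 17.2%, above 12.4% of them. VIM's place among the genes typical of H1299 was thus high in some RNC libraries and low in others, and not particular to the one labelled HBE NC.

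A further set was defined after the values were seen. It holds 36 genes with at most 0.2 CPM in each of the 12 libraries outside RNC and at least 2 CPM in an RNC library, so they are nearly absent from both lines as sequenced in mRNA, cytosol and nuclear RNA. THY1 is the 1 member among them. FOXA2 had 2.21, 2.96, 26.3 and 12.2 CPM in the RNC libraries labelled H1299 vector, H1299 FLII overexpression, HBE NC and HBE FLII knockdown. The signal protein gene RSPO3 had 1.22, 2.03, 21.1 and 10.7. They were chosen by their RNC level, and all 36 were highest in the library labelled HBE NC and second in that labelled HBE FLII knockdown. The ratio of CPM in the library labelled HBE NC to that labelled H1299 FLII overexpression, both rich in genes typical of HBE, had a median of 8.81 over the 36 genes, with quartiles of 8.17 and 12.3. Over all genes with at least 20 reads in this pair the median was 1.64, and over genes typical of HBE it was 0.517.

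In the same ratio VIM stood at 7.87 (7.52 to 8.24), ZEB1 at 8.53 (5.13 to 15.1), ZEB2 at 7.35 (4.08 to 14.4), TWIST1 at 8.87 (4.42 to 20.2) and THY1 at 9.62 (4.81 to 21.8). SNAI2 stood at 1.02 (0.587 to 1.75) and SNAI1 at 2.94 (2.12 to 4.13). Genes typical of H1299 had a median of 6.92, over the 128 that passed a minimum of reads in the library labelled H1299 FLII overexpression. TWIST1, with 9 reads there, did not pass it, and a lower minimum applied to the 36 genes. The choice of the 36 genes favours a high ratio in this pair, and THY1 is one of them, so these ratios are a description only. In the other pairs VIM, ZEB1, ZEB2 and TWIST1 lay below the range that holds 5% to 95% of the 36. Against the library labelled HBE FLII knockdown the 36 had a median of 1.98 (range 1.7 to 3.02), while VIM stood at 1.43, ZEB1 at 0.689, ZEB2 at 1.16, TWIST1 at 0.348 and THY1 at 3.0. Against the library labelled H1299 vector the 36 had a median of 12 (6.05 to 22.7), while VIM stood at 2.95, ZEB1 at 2.02, ZEB2 at 1.99, TWIST1 at 0.308 and THY1 at 12.1. The source of the RNC reads of these genes was not tested.

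**Figure D4:**
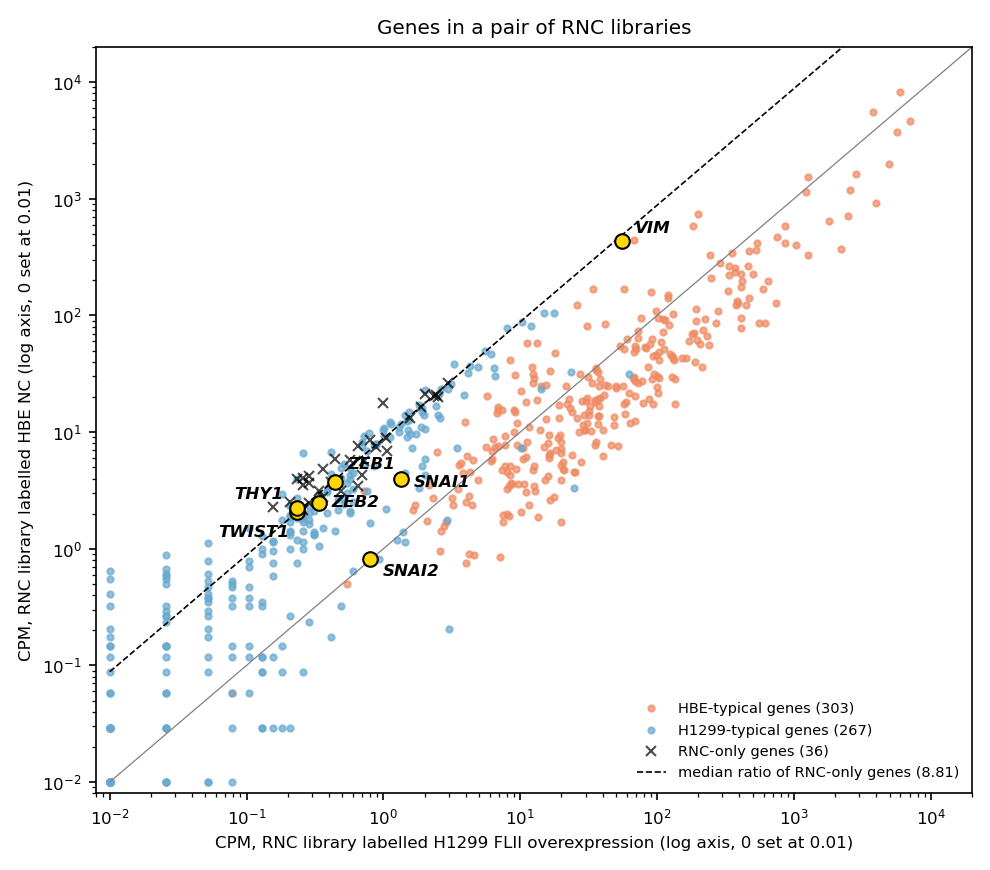
CPM in the RNC library labelled HBE NC (vertical, log axis) against the RNC library labelled H1299 FLII overexpression (horizontal, log axis), with 1 point per gene of the 3 sets, the 7 genes in yellow, a solid line at equal levels and a dashed line at the median ratio of 8.81 of the RNC-only genes. VIM, ZEB1, ZEB2, TWIST1 and THY1 lie near the dashed line, SNAI2 lies near the solid line and SNAI1 lies between them.

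Across the 16 libraries the 7 genes also differed in which genes ran with them. The measure is Pearson's r of log2(CPM + 0.5) over 13962 genes, given as a description because libraries of a line share their cells and the RNC labels are in doubt. The genes most like VIM were PRAME (0.993), IGF2BP1 (0.989), INA (0.988), PLIN2 (0.986) and DPYSL3 (0.985). Those most like ZEB1 were SLC10A4 (0.988), TBX18 and RBM24 (both 0.984), like ZEB2 PLAGL1 (0.991), ZNF280B (0.989) and POU4F1 (0.988), and like TWIST1 RUNX3 (0.992), ZNF32 (0.991) and NKX3-2 (0.990). VIM had r of 0.952 with ZEB1, 0.953 with TWIST1, 0.926 with ZEB2, 0.282 with SNAI1 and −0.849 with SNAI2. Those most like SNAI2 were EFCAB4B (0.986), the epithelial transcription factor gene GRHL2 (0.982) and OTUD1 (0.978). With SNAI2 the epithelial genes CDH1 and EPCAM had r of 0.878 and 0.949. SNAI1 had no close neighbour, with MYEOV (0.731) and GOSR2 (0.689) among the nearest.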

How the data were processed

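For each library the authors deposited a read count and an RPKM per RefSeq gene. Per the submitters' processing notes the build was GRCh37 (hg19); for aligner, counter and strand setting the label text at hand names none (not given in the sources used here). The deposited RPKM equalled count per length and per total count (largest relative gap 5.5e-07). Libraries were scaled in pairs by TMM (edgeR 4.0.16, R 4.3.3), and log2 folds were computed with 0.5 reads added. Each has an exact conditional binomial (Clopper-Pearson) 95% interval, for counting error only, since reads are not independent molecules. A value was called at 20 summed reads, a log2 fold of at least 1 and an interval without 0. A gene at 0 reads is given against a limit of 3 counts. The fold code was tested on simulated counts. The 7 genes and the 12 gene lists were chosen with earlier results of these data known. Named list genes were the called ones, at most 6 per comparison by the bound nearest 0; others were named after their values were seen. Alternatives were total counts, DESeq2 1.42.0 size factors, other read minimums, 5 reads added and RPKM with 1 added. Coordinates are given for printed sequences only, on GRCh38.p14, and not for the counted genes, whose build differs. Values of a few other genes are not reported here.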

Additional observations from a re-analysis of the deposited data

Results flagged for a closer look

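Of the 7 genes, SNAI2 and TWIST1 were called in opposite directions by the FLII pairs of the RNC libraries. SNAI2 was at least 8.69-fold higher in RNC labelled H1299 FLII overexpression than in RNC labelled H1299 vector (31 and 0 reads, against a limit of 3 counts), and its log2 fold between the RNC libraries labelled HBE FLII knockdown and HBE NC was −2.37 (3 and 28 reads). TWIST1 stood at −4.98 in the first of these pairs (9 and 253 reads) and at 1.86 in the second (159 and 71 reads). The difference between the pairs was not tested, each side being 1 library. The genes typical of each line go against the line label of the RNC libraries labelled FLII overexpression and FLII knockdown and not against those labelled vector and NC, and the FLII fold goes against the labels of the H1299 pair and is 0.07 in the HBE pair. Outside RNC neither gene was called in an FLII pair of either line.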

How the results depend on the processing

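No paired analysis was possible because each group holds 1 library. With at least 100 summed reads in place of 20, calls fell from 11 to 3 for the FLII pairs, from 37 to 20 for the lines and from 30 to 14 for the kinds of RNA, because fewer values remained to be called (16, 25 and 19). With RPKM plus 1 the FLII pairs gave 3 and the kinds of RNA 17, since folds of low genes shrink. Without the RNC libraries, a choice made after seeing the data, the counts were 3, 29 and 6. VIM in the RNC library labelled HBE NC moved from 24.6% to 33.5% of its H1299 vector cytosol level with TMM scaling. SNAI1 in RNC over mRNA reversed in the arms labelled H1299 vector and H1299 FLII overexpression, from 1.32 and 1.21 to −0.82 and −0.58 with total counts and to −0.37 and −0.29 with RPKM. TWIST1 in RNC over mRNA of the arm labelled H1299 vector went from 0.38, not called, to −1.8 with total counts and −1.59 with RPKM, both called. Total counts in place of TMM shifted folds by 0.33 to 0.56 in nuclear over cytosol, by 0.10 to 0.47 between lines outside RNC, by −0.98 to −0.59 between lines in RNC and by −2.19 to −0.93 in RNC over mRNA. VIM in nuclear over cytosol of H1299 FLII overexpression was 1.19 and called with total counts. With DESeq2 size factors 1 call changed.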

Other observations

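Of 17 genes of signalling upstream of the transition, not all of them inducers, 16 were tested in mRNA of the control arms. Of these, 2 were higher and 8 lower in H1299 vector than in HBE NC, where 43.6% of all genes were called. Their median log2 fold was −1.08, beside −0.01 over all genes. The growth factor gene TGFB1 was higher at 2.49 (4350 and 899 reads) and TGFB3 at 4.74 (58 and 2 reads), while TGFB2 was lower at −4.28 (29 and 664 reads). The receptor gene NOTCH1 stood at −5.12, the hypoxia factor gene HIF1A at −3.26 and the ligand gene WNT5A at −3.91 from 1 and 25 reads. NOTCH1 was also lower after FLII knockdown in HBE mRNA, at −1.30 from 1565 and 3871 reads. Over the 12 libraries outside RNC, 2 of the 17 were above in H1299, 2 above in HBE and 13 overlapped, where 25.4% of all genes did not overlap.

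The corepressors of SNAI and ZEB proteins, and the enzymes that turn SNAI proteins over, were counted in the same way. Of 11 corepressor genes, 0 were higher and 1 lower in H1299 vector mRNA, the chromatin remodeller gene SMARCA4 at −2.64 (355 and 2571 reads). Of 10 turnover genes, PRKD1 was higher at 5.06 from 44 and 1 reads and FBXW7 lower at −1.24. In this mRNA pair 43.6% of all genes tested were called. In cytosol of the same arms 2 corepressor genes were higher and 4 lower of 11, and 4 turnover genes were higher and 2 lower of 9, where 48.9% of all genes were called. After FLII overexpression in H1299 mRNA, 0 of 11 corepressor genes and 0 of 10 turnover genes were called (background 0.798%). After knockdown in HBE mRNA 0 of 11 and 0 of 9 were (background 4.95%).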
